A study of Homo sapiens with 8 samples.

Results

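The clustered protocadherins are cadherin-type cell surface proteins encoded by 3 neighbouring gene clusters, alpha, beta and gamma, on human chromosome 5. Members were chosen by symbol alone: a gene entered if a probe set with 1 gene symbol was listed for it and that symbol began with PCDHA, PCDHB or PCDHG, pseudogenes included. This gave 31 of the 18417 genes measured, namely 12 alpha genes, 18 beta genes (2 of them the pseudogenes PCDHB17P and PCDHB18P) and 1 gamma gene, PCDHGB4. Where a gene had several such probe sets the one with the highest mean was kept, which applied only to PCDHA2, whose 2 probe sets had means of 5.06 and 5.03. RefSeq lists 59 genes with these symbols, and the other 28, among them PCDHA9, PCDHB19P, the C-type genes PCDHAC1, PCDHAC2, PCDHGC3, PCDHGC4 and PCDHGC5, and the remaining gamma genes, are not analysed here.

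The cells were U373, an established human astrocytoma line, grown in medium with hormone-free serum before treatment. They received vehicle, 10 nM progesterone, 1 µM RU-486 (mifepristone, an antagonist of the progesterone and glucocorticoid receptors), or both compounds together for 12 h. Each of the 4 groups has 2 arrays, 8 in all, of the Affymetrix Human Gene ST type, hybridised with total RNA. The replicates are labelled biological, with no word on separate cultures, and p-values here therefore reflect only the spread between these arrays, which may be technical.

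In the alpha and gamma clusters each variable first exon has its own promoter and is spliced to constant exons shared by its cluster, whereas each beta gene is a single coding exon of its own. Neurons typically express a small set of these genes per cell, chosen at the promoter with the help of the DNA-binding protein CTCF and the cohesin ring, and the resulting protein combinations mediate homophilic recognition between cell surfaces. Most of the variable promoters carry a conserved element with the core CGCT. Astrocytes also express clustered protocadherins, the gamma genes being the best studied.

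Levels are log2 expression values, taken to be RMA values. Probe sets differ in affinity, so each gene was placed against a background and not against the other genes. As background served 341 olfactory receptor genes, a family expressed mainly in the nose. Their means over 8 arrays had a median of 4.64, and the 95th percentile, 6.22, was taken as the limit. The median of all 18417 genes ran from 7.72 to 7.76 over the arrays. Of 13 astrocyte and glioma markers 11 lay above the limit, among them GFAP at 7.54 and S100B at 9.59, and AQP4 and ALDH1L1 lay below it. Above the limit were also 7 of 12 neuronal markers, 4 of 7 measured oligodendrocyte markers, 5 of 8 fibroblast markers, 4 of 6 epithelial markers and 1 of 8 microglial and leukocyte markers (CD68).

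The promoters of the members show how alike the genes are within a cluster. RefSeq promoter sequences, 250 bases before to 50 bases after each transcription start, were at hand for 25 of the 31 members. Those of PCDHA3, PCDHA13, PCDHB6, PCDHB11, PCDHB17P and PCDHB18P were not used here. The following stretches of 28 bases (GRCh38.p14, plus strand, CGCT in capitals) belong to 4 alpha genes, namely PCDHA5 and PCDHA8 above the limit and PCDHA2 and PCDHA11 below it, to 4 beta genes far above the limit, to PCDHB3, PCDHB8 and PCDHB1 below it, and to PCDHGB4.
PCDHA5 at chr5:140821544-140821571: catccacatgatgtCGCTggacaccgga
PCDHA8 at chr5:140841132-140841159: aagccacatgatgtCGCTgtctaccaag
PCDHA2 at chr5:140794783-140794810: tagccacatgatgtCGCTgtccaccata
PCDHA11 at chr5:140868885-140868912: taggcgcaaggtgtCGCTctttacttgg
PCDHB9 at chr5:141187076-141187103: aagccacaaggtggCGCTgcagactgaa
PCDHB16 at chr5:141182312-141182339: agaacgcgtggtggCGCTgcaggttaag
PCDHB14 at chr5:141223265-141223292: gagacacatggtggCGCTacaggataag
PCDHB2 at chr5:141094546-141094573: gagacgcggggtggCGCTgcagccttag
PCDHB3 at chr5:141100395-141100422: cgaacgcatggtggCGCTgttgactaag
PCDHB8 at chr5:141177779-141177806: aggacccgtggtggCGCTgcaggataag
PCDHB1 at chr5:141051276-141051303: ctggggagttgagtCGCTcaatgcaaat
PCDHGB4 at chr5:141387619-141387646: ctgactctgggcgcCGCTgttggccaaa

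A 9-base word that contains the core was searched for in each cluster, on both strands, after the sequences had been seen. GATGTCGCT (reverse complement AGCGACATC) occurred in 9 of the 10 alpha promoters, in 0 of the 14 beta promoters and in 0.105% of all 35116 promoters of the same length. GGTGGCGCT (reverse complement AGCGCCACC) occurred in 13 of the 14 beta promoters, in 0 of the 10 alpha promoters and in 0.501% of all promoters. The core CGCT alone (reverse complement AGCG), which lies inside both words, occurred in every member promoter and in 70% of all promoters. The exceptions were PCDHA11 and PCDHB1, which hold the core without the word of their cluster. PCDHGB4 held neither word in its 2 promoter entries. CGCT occurs 2 times in the PCDHB1 promoter and 4 times in the PCDHGB4 entry shown. The core capitalised above was there picked by its position alone, -84 and -65 from the start. In the alpha promoters with the word, the C of the core lay 81 to 38 bases before the start. In the beta promoters with the word it ran from position -79 to position 4, the latter after the start, in PCDHB8. Of the 13 beta genes with the word 7 lay above the limit and 6 below it, PCDHB16 and its neighbour PCDHB8 being an example of each. The matches describe the sequence and were not tested as binding sites.

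By mean level 21 of the 31 members (67.7%) lay above the limit, against 72.4% of all genes. On all 8 arrays 19 members stayed above it and 6 below it, and the other 6 had arrays on both sides. Above every olfactory receptor gene lay 11 members. Only 6 members exceeded the median of all genes, 7.74. The members nearest above the limit were PCDHA10 (6.42), PCDHA6 (6.49) and PCDHA12 (6.53), and those nearest below it were PCDHB15 (6.21), PCDHB12 (6.09) and PCDHB13 (6.05).

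Most alpha genes lay above the limit. Their means ran from 5.06 to 7.90 with a median of 6.56, and 10 of 12 lay above the limit. PCDHA3 (7.90 ± 0.21, SD over 8 arrays), PCDHA13 (7.42 ± 0.17) and PCDHA5 (7.31 ± 0.22) lay above every olfactory receptor gene, and PCDHA8 (6.90 ± 0.21) lay above 99.4% of them. Below the limit on every array were PCDHA2, at 5.06 ± 0.09, and PCDHA11, at 5.40 ± 0.24, which exceeded 66% and 80.4% of the olfactory receptor genes. All 12 alpha probe sets are annotated with 1 transcript of their gene. A further probe set lists 15 alpha symbols at once and other transcripts of the same 12 genes. It read 5.69 and 5.65 with vehicle, 5.74 and 5.72 with progesterone, 5.67 and 5.68 with RU-486, and 5.76 and 5.71 with both. That probe set also lay below the limit on all 8 arrays.

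The values of the beta probe sets ran from 3.83 to 9.91 with a median of 6.67, and 10 of 18 lay above the limit. PCDHB9 (9.91 ± 0.12, SD over 8 arrays), PCDHB16 (9.37 ± 0.09), PCDHB14 (9.03 ± 0.16) and PCDHB2 (8.37 ± 0.05) were the highest, and PCDHB16 and PCDHB9 are neighbours. The pseudogene PCDHB17P had a mean of 7.37 ± 0.12, above every olfactory receptor gene, and PCDHB18P one of 6.63 ± 0.24, above 97.7% of them. Deep inside the background were PCDHB6 (3.83 ± 0.15), PCDHB1 (4.37 ± 0.17) and PCDHB8 (4.39 ± 0.33), which exceeded 16.1%, 36.4% and 37.2% of the olfactory receptor genes. PCDHB8 lies beside PCDHB16 in the cluster. The one gamma member, PCDHGB4, had a mean of 7.88 ± 0.20, above every olfactory receptor gene. Beta genes are close paralogues, and cross-hybridisation between their probe sets was not tested.

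**Figure D1:**
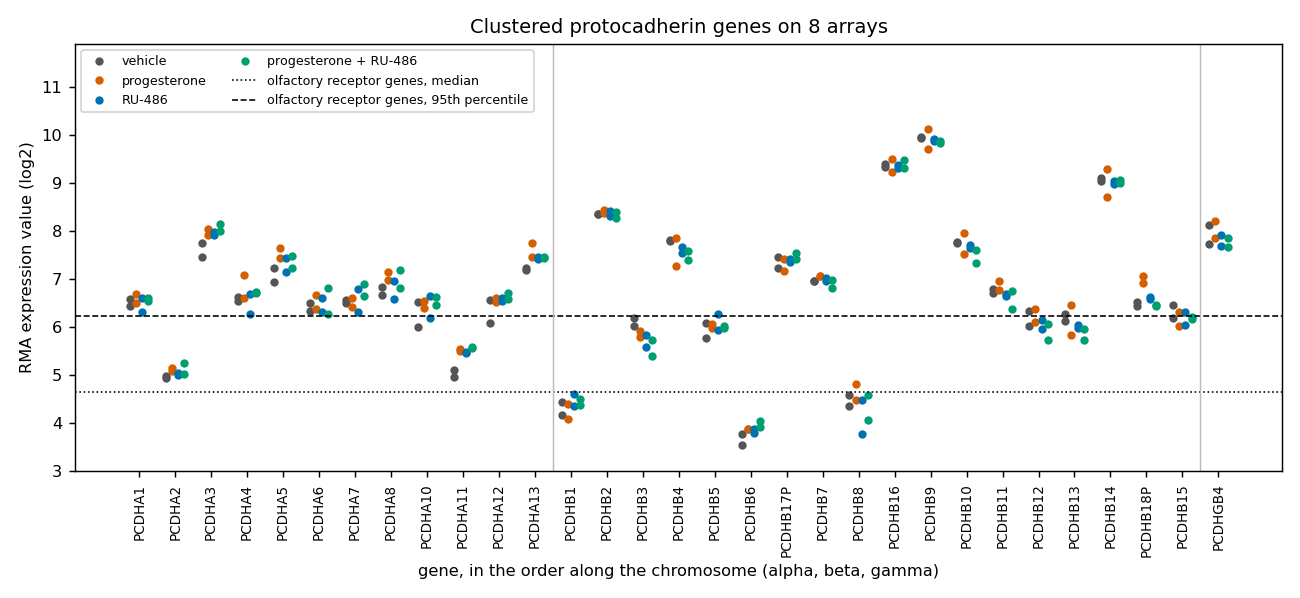
RMA value (log2, vertical axis) of each of the 31 members (horizontal axis, in chromosomal order) on each of 8 arrays, 1 point per array, coloured by treatment; the dotted and dashed lines are the median (4.64) and 95th percentile (6.22) of the means of 341 olfactory receptor genes. The means of the alpha genes run from 5.06 to 7.90, and those of the beta genes from 3.83 (PCDHB6) to 9.91 (PCDHB9).

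The design crosses progesterone with RU-486, so it asks what each compound does alone, what they do together, and whether the effect of one depends on the other. No member passed limma's adjusted p of 0.05 in any of the 9 comparisons or in the F test over the 4 groups. Among all genes 0 passed as well, that is 0% called, except for the average RU-486 effect (4 arrays with against 4 without), where 6 genes or 0.0326% did. At an unadjusted p under 0.05 limma gave 5 members for progesterone against vehicle (6.13% of all genes), 3 for RU-486 against vehicle (3.10% of all genes) and 4 for the combination against vehicle (13.2% of all genes). It gave 1 member, PCDHB18P, for RU-486 against progesterone (4.63% of all genes), the same 1 for the combination against progesterone (14.6% of all genes), and 0 for the combination against RU-486 (4.75% of all genes). The interaction gave 3 members (5.28% of all genes), the average RU-486 effect 4 (11.0% of all genes), the average progesterone effect 5 (5.03% of all genes) and the F test 5 (7.63% of all genes). With 31 members these counts differ from the background shares by a few genes.

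No alpha gene passed the test in any comparison with vehicle. The median difference over the 12 alpha genes was 0.25 for progesterone, 0.11 for RU-486 (0.005 without RU-486 replicate 2) and 0.25 for the combination. Over all genes the medians were 0.00, 0.01 and 0.07, and over the olfactory receptor genes 0.09, 0.06 and 0.06. The share of alpha genes above 0 was 11 of 12, 10 of 12 and 12 of 12, against 72.7%, 62.2% and 65.4% of the olfactory receptor genes. The exceptions were PCDHA7 with progesterone, at -0.02, and PCDHA1 and PCDHA4 with RU-486, at -0.05 and -0.10. The array medians of those receptor genes ran from 4.57 to 4.84, the highest on progesterone replicate 1. Their part in the alpha difference was not tested. The probe set that lists several alpha symbols at once covers other transcripts of the same 12 genes. Its group means were 5.67 with vehicle, 5.73 with progesterone, 5.67 with RU-486 and 5.73 with both, all below the limit. Cross-hybridisation between the alpha probe sets was not tested. Both progesterone arrays exceeded both vehicle arrays for 6 alpha genes (16.3% of all genes), both RU-486 arrays for 4 (24.0% of all genes) and both combination arrays for 7 (42.7% of all genes). No alpha gene had both arrays of a treatment below both vehicle arrays, against 15.8%, 15.7% and 18.8% of all genes in the same 3 comparisons.

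PCDHA11 had the smallest p of the alpha genes in these 3 comparisons, and it had been singled out in earlier work on these arrays, so its values are a description. It read 4.95 and 5.10 with vehicle, 5.54 and 5.50 with progesterone, 5.45 and 5.48 with RU-486, and 5.59 and 5.57 with both. The 6 treated arrays lay between 5.45 and 5.59, all above the vehicle arrays. All 8 values lay below the olfactory receptor limit. The differences from vehicle were 0.49 ± 0.08 (SE, 2 arrays against 2; limma adjusted p = 0.741) for progesterone, 0.44 ± 0.08 (adjusted p = 0.959) for RU-486 and 0.55 ± 0.08 (adjusted p = 0.374) for the combination. The interaction was -0.38 ± 0.12 (limma adjusted p = 0.828) and did not pass. Leaving out progesterone replicate 2, the progesterone difference was 0.51 with a limma adjusted p of 0.0436, in a fit that called 6.67% of all genes. In this and the other fits without a progesterone array, that group has 1 array, which is assumed to vary like the other groups.

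PCDHA3, the alpha gene farthest above the background, read 7.75 and 7.47 with vehicle, 8.05 and 7.92 with progesterone, 7.92 and 7.98 with RU-486, and 8.14 and 8.01 with both. Here too both vehicle arrays lay below the 6 treated ones, while the treated groups overlapped one another, except that both combination arrays lay above both RU-486 arrays. The combination differed from vehicle by 0.47 ± 0.11 (limma adjusted p = 0.374). PCDHA13 read 7.23 and 7.18 with vehicle, 7.74 and 7.46 with progesterone, 7.47 and 7.41 with RU-486, and 7.47 and 7.43 with both. Its progesterone difference was 0.39 ± 0.11 (limma adjusted p = 0.741), and without progesterone replicate 2 it was 0.54 with an adjusted p of 0.042. PCDHA5 differed by 0.46 ± 0.16 for progesterone (limma adjusted p = 0.741), with 1 array of RU-486 and 1 of the combination inside the range of the vehicle arrays.

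The mean of the 3 treatments was also set against vehicle, a comparison chosen after the values had been seen. It called 0 genes and 0 members, with 7 members at an unadjusted limma p under 0.05 (5.82% of all genes). All 6 treated arrays lay above both vehicle arrays for PCDHA2, PCDHA3, PCDHA11, PCDHA13 and PCDHB6 (7.02% of all genes) and below them for PCDHB3 (2.24% of all genes). For PCDHA2 this held only in the probe set that was kept. Its other probe set read 4.879 on combination replicate 2, below its vehicle arrays at 4.965 and 4.946. The median difference was 0.21 for the alpha genes, -0.06 for the beta genes, 0.03 for all genes and 0.08 for the olfactory receptor genes. PCDHA11 had the largest difference, 0.49 ± 0.07 (limma adjusted p = 0.696).

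**Figure D2:**
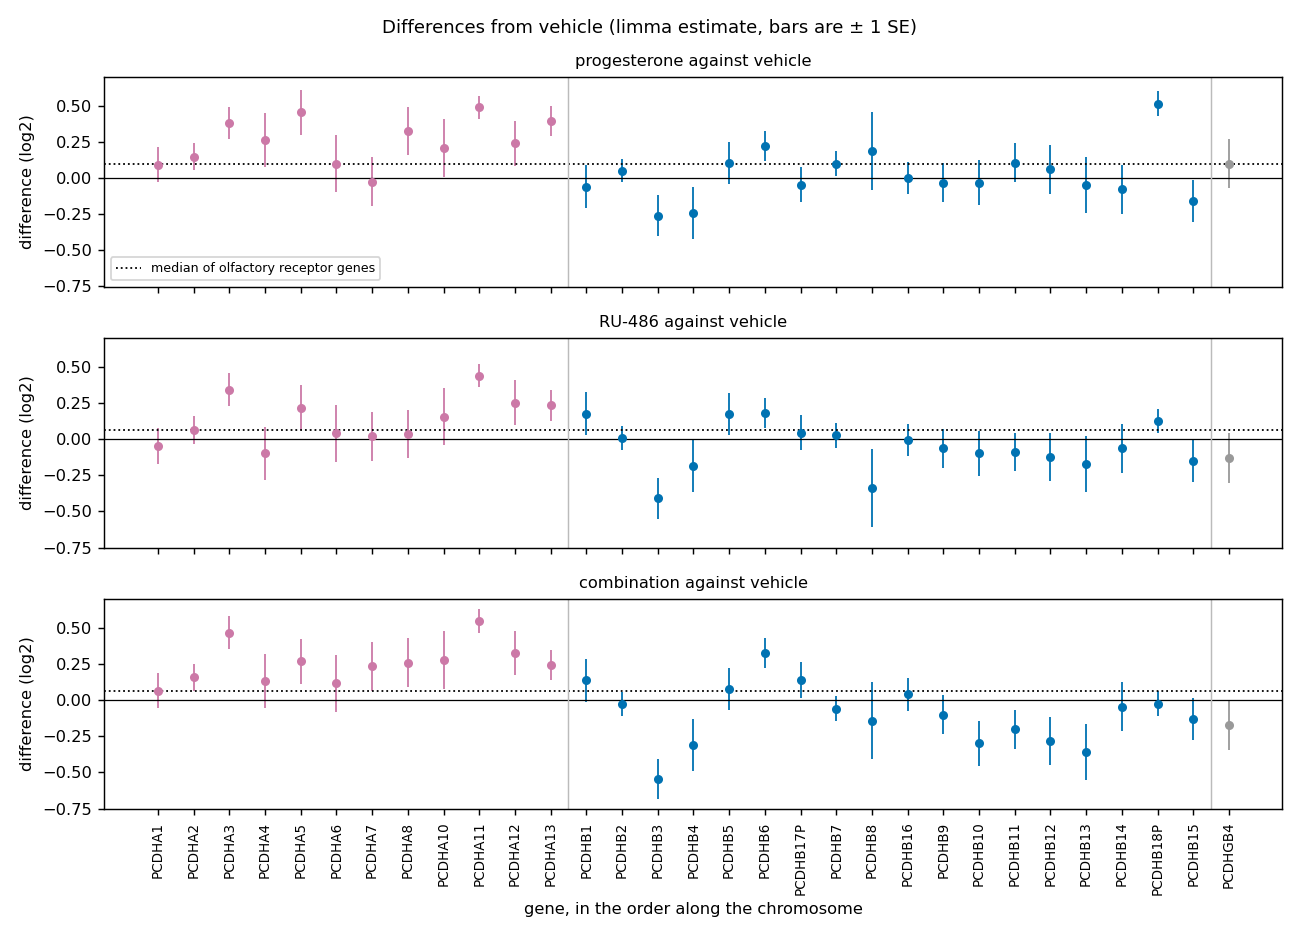
Difference from vehicle (log2, vertical axis) of each member (horizontal axis, in chromosomal order) for progesterone, RU-486 and the combination, as limma estimates from 2 arrays against 2 with bars of 1 SE; the dotted line is the median of the olfactory receptor genes. Alpha genes (left block) lie mostly above 0, with PCDHA11 at 0.49, 0.44 and 0.55, while beta genes (middle block) lie on both sides of 0, PCDHB3 lowest with RU-486 and with the combination.

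The beta median difference from vehicle was -0.02 for progesterone, -0.06 for RU-486 and -0.08 for the combination, against 0.00, 0.01 and 0.07 over all genes. Above 0 were 8, 7 and 5 of 18 beta genes, against 51.2%, 55.3% and 67.5% of all genes. Of the olfactory receptor genes 72.7%, 62.2% and 65.4% were above 0, with medians of 0.09, 0.06 and 0.06. Both arrays of a treatment exceeded both vehicle arrays for 4 of 18 beta genes with progesterone (16.3% of all genes), 2 with RU-486 (24.0% of all genes) and 1 with the combination (42.7% of all genes). They lay below both vehicle arrays for 1, 6 and 5 of 18 (15.8%, 15.7% and 18.8% of all genes). The combination set against progesterone gave a beta median of -0.08 and an alpha median of 0.01. In that comparison both arrays of the combination lay above both progesterone arrays for 2 alpha genes and 1 beta gene (28.1% of all genes), and below them for 5 beta genes and PCDHGB4 (12.6% of all genes).

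PCDHB3 was the beta gene farthest from vehicle with RU-486 and with both compounds. It read 6.03 and 6.20 with vehicle, 5.79 and 5.92 with progesterone, 5.58 and 5.83 with RU-486, and 5.40 and 5.73 with both. Every treated array lay below both vehicle arrays, and all 8 arrays lay below the limit. The combination differed from vehicle by -0.54 ± 0.14 (limma adjusted p = 0.374), and the average RU-486 effect was -0.35 ± 0.10 (adjusted p = 0.421). PCDHB6, the member deepest in the background, went the other way, from 3.53 and 3.76 with vehicle to 4.05 and 3.91 with both compounds. That difference was 0.33 ± 0.10 (limma adjusted p = 0.374).

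The pseudogene PCDHB18P had the smallest p of the beta genes for progesterone against vehicle, and it too had been singled out in earlier work on these arrays. It read 6.44 and 6.52 with vehicle, 6.91 and 7.07 with progesterone, 6.59 and 6.62 with RU-486, and 6.46 and 6.44 with both. The 2 progesterone arrays were the highest of the 8, and the arrays with both compounds lay within the vehicle range. Progesterone differed from vehicle by 0.51 ± 0.09 (limma adjusted p = 0.741), the combination from progesterone by -0.54 ± 0.09 (adjusted p = 0.209), and RU-486 from progesterone by -0.39 ± 0.09 (adjusted p = 0.842). The interaction was -0.66 ± 0.12, with an unadjusted p of 0.00087 and a limma adjusted p of 0.828. Without progesterone replicate 2 the difference from vehicle was 0.43 (adjusted p = 0.0446), and without progesterone replicate 1 the combination differed from progesterone by -0.62 (adjusted p = 0.0427), in limma fits that called 6.67% and 5.92% of all genes.

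Both progesterone arrays lay above the other 6 for PCDHB18P and PCDHB7 (7.07 and 7.05, the others 6.82 to 7.02), as they did for 2.07% of all genes, and below the other 6 for 0 members against 7.61% of all genes. Next to PCDHB18P in the cluster, PCDHB14 read 8.72 and 9.29 with progesterone, on either side of the other 6 arrays. On its other side, beyond PCDHB19P, PCDHB15 read 6.02 and 6.31 with progesterone and 6.18 and 6.46 with vehicle. Neither neighbour had progesterone arrays apart from the rest.

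For 2 further beta genes a call depended on 1 array. PCDHB4 read 7.27 and 7.85 with progesterone and 7.79 and 7.81 with vehicle, a difference of -0.24 ± 0.18 (limma adjusted p = 0.78). Without progesterone replicate 2 it was -0.53 (adjusted p = 0.0464). PCDHB13 read 5.84 and 6.46 with progesterone and 5.72 and 5.95 with both, a difference of -0.31 ± 0.19 (limma adjusted p = 0.478). Without progesterone replicate 1 it was -0.62 (adjusted p = 0.0433), and the average RU-486 effect of PCDHB13 moved from -0.24 to -0.40 (adjusted p = 0.0432, with 5.42% of all genes called).

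The beta genes farthest above the background differed little between group means. PCDHB9 read 9.95 and 9.96 with vehicle, 9.71 and 10.14 with progesterone, 9.87 and 9.91 with RU-486, and 9.84 and 9.88 with both. PCDHB16 had group means from 9.35 to 9.40, and PCDHB2 from 8.33 to 8.41. In PCDHB9 the progesterone pair spanned all other arrays.

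**Figure D3:**
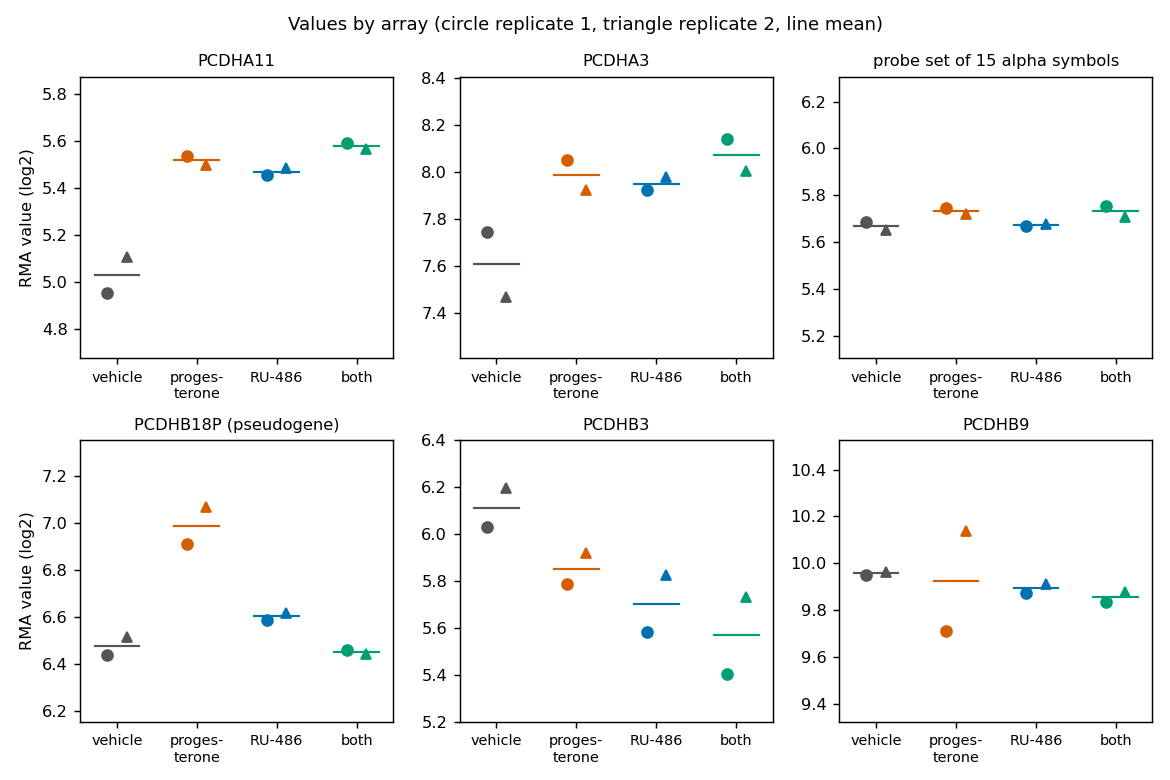
RMA value (log2, vertical axis, all panels of equal height) by treatment group (horizontal axis) for 5 members and the probe set of 15 alpha symbols; circles are replicate 1, triangles replicate 2 and lines the group means. PCDHA11 and PCDHA3 have vehicle lowest, PCDHB18P has progesterone highest, PCDHB3 has vehicle highest, and the pooled alpha probe set stays between 5.65 and 5.76.

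PCDHGB4, the gamma gene, read 7.74 and 8.12 with vehicle, 8.21 and 7.86 with progesterone, 7.69 and 7.91 with RU-486, and 7.86 and 7.67 with both. The groups overlapped in each comparison with vehicle. The differences from vehicle were 0.10, -0.13 and -0.17 for progesterone, RU-486 and the combination, and each changed sign when 1 array was left out: the first was -0.09 without vehicle replicate 1 and -0.07 without progesterone replicate 1, and the others were 0.06 and 0.02 without vehicle replicate 2. The largest difference, -0.27 for the combination against progesterone, had a limma adjusted p of 0.487.

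Arrays of the same pair differed too. The median size of the difference within a pair was 0.14 to 0.28 over the alpha genes and 0.07 to 0.28 over the beta genes. These are differences between single arrays, not between group means. In the progesterone pair 15 of 18 beta genes were higher on replicate 2, with a median of 0.27, whereas of all genes 37% were higher, with a median of -0.08. The alpha genes of that pair had 5 of 12 higher and a median of -0.04. In the RU-486 pair 10 of 12 alpha genes were higher on replicate 2, with a median of 0.28, against 56% of all genes. In the vehicle pair 15 of 18 beta genes but 4 of 12 alpha genes were higher on replicate 2. Across all genes the SD of the difference within a pair was 0.35 for progesterone and 0.16 to 0.18 for the other 3 pairs, and 2176 genes differed by over 0.5 in the progesterone pair against 127 to 450 in the others. A beta median of -0.02 for progesterone against vehicle was 0.16 without progesterone replicate 1 and -0.11 without progesterone replicate 2. The alpha median for RU-486 against vehicle was 0.245 without RU-486 replicate 1, 0.005 without RU-486 replicate 2, 0.19 without vehicle replicate 1 and 0.036 without vehicle replicate 2, and that for progesterone was 0.41 without vehicle replicate 1.

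**Figure D4:**
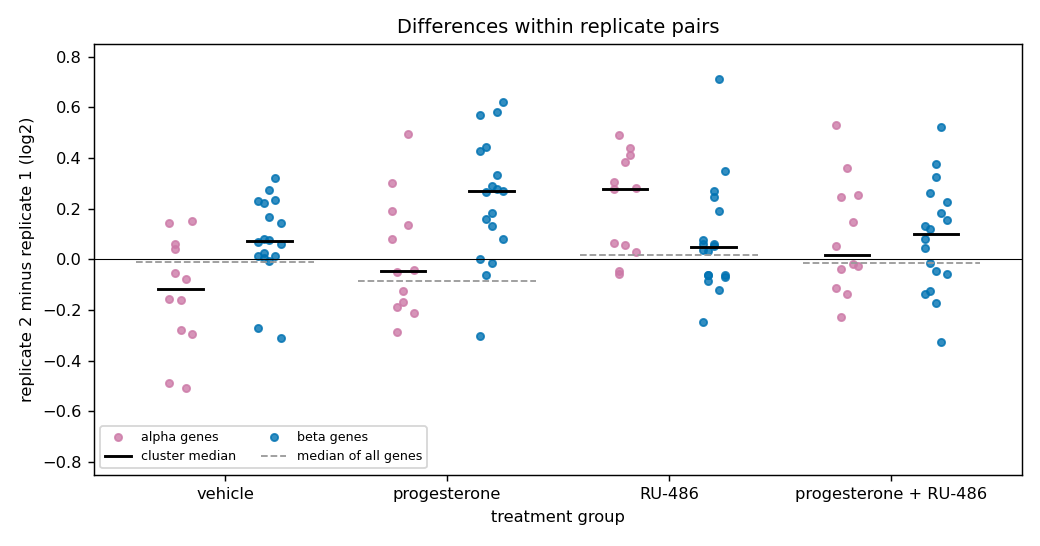
Replicate 2 minus replicate 1 (log2, vertical axis) for each alpha and beta gene, by treatment group (horizontal axis); black bars are cluster medians and dashed lines the median of all genes. The beta median stands at 0.27 in the progesterone pair and the alpha median at 0.28 in the RU-486 pair, both away from the median of all genes.

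Genes that act on these promoters, or with the proteins, were taken from lists chosen by known function. Of 31 regulators of chromatin and promoter choice 30 were measured and all 30 lay above the limit. For the average RU-486 effect limma called 0 in either direction, with 10 lower and 0 higher at an unadjusted p under 0.05 (4.49% of all genes were lower at that p), and a median of -0.06 against 0.03 over all genes. CTCF, which binds the promoter element, differed by -0.02 ± 0.07. The smallest p belonged to TET2 and TET1, which oxidise methylated DNA, at -0.66 ± 0.14 (limma adjusted p = 0.333) and -0.60 ± 0.20 (adjusted p = 0.427), and to the cohesin subunit RAD21, at -0.29 ± 0.10 (adjusted p = 0.427). SMCHD1, a silencer of the clusters, differed by -0.39 ± 0.22 (limma adjusted p = 0.524). TET1 read 6.67 and 7.58 with progesterone and 6.83 and 7.24 with vehicle, so its pairs spread widely too. For RU-486 against vehicle 0 of the 30 regulators were higher or lower at an unadjusted limma p under 0.05 (3.10% of all genes). By sign alone 28 were lower and 2 higher, while 55.3% of all genes were higher. The median was -0.11 against 0.01 over all genes. For the combination against vehicle 1 was higher and 11 lower at an unadjusted limma p under 0.05. Of all 18417 genes 1274 were higher and 1158 lower at that p. The median there was -0.09 against 0.07 over all genes. For the combination against progesterone 2 were higher and 8 lower at that p. Of all 18417 genes 1858 were higher and 828 lower, 14.6% in either direction.

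Of 27 signalling and processing partners 23 were measured, and limma called 0 for the average RU-486 effect, with 3 higher (6.53% of all genes) and 2 lower (4.49% of all genes) at an unadjusted p under 0.05. FYN, a kinase of the Src family, read 9.18 and 9.12 with vehicle, 9.02 and 8.97 with progesterone, 9.42 and 9.56 with RU-486, and 9.51 and 9.53 with both. All 4 arrays with RU-486 lay above the 4 without (4.51% of all genes), and the effect was 0.43 ± 0.06 (limma adjusted p = 0.125). ADAM10, the protease that sheds the extracellular part of gamma protocadherins, differed by -0.45 ± 0.16 (limma adjusted p = 0.43), the gamma-secretase subunit PSEN2 by 0.27 ± 0.07 (adjusted p = 0.412), and NCKAP1, of the WAVE complex that remodels actin, by -0.36 ± 0.12 (adjusted p = 0.424). Taken apart, ADAM10 differed by -0.11 for RU-486 against vehicle and by -0.79 for the combination against progesterone. In the same order PSEN2 differed by 0.19 and 0.35, and NCKAP1 by -0.14 and -0.58. WASF1 is not analysed here.

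Of 11 non-clustered protocadherins, which stand alone in the genome, PCDH1 (7.98), PCDH10 (6.90) and PCDH18 (9.95) lay above the limit. For the average RU-486 effect limma called 0 of 11, with 0 higher (6.53% of all genes) and 1 lower (4.49% of all genes) at an unadjusted p under 0.05, namely PCDH18 at -0.18 ± 0.07 (adjusted p = 0.447). Of 15 cadherins 13 were measured and 5 lay above the limit, among them CDH2 (N-cadherin) and CDH11, both at 11.8. Limma called 0 of these 13 for that effect, with 0 at an unadjusted p under 0.05 (11.0% of all genes).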

How the data were processed

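The deposited table holds log2 values of 33297 probe sets on each array. RMA, oligo and limma are named, without their roles, in the submitters' processing notes; versions, settings and genome build are not given in the sources used here. Values were read as RMA output. As a method, RMA equalises the distribution of values between arrays, which removes shifts shared by most genes and compresses differences of dim genes. The descriptions give another compound number where the titles give RU-486, which was taken to mean that drug, and U373 is shortened in the cell line field.

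In the platform annotation 19460 probe sets carry 1 symbol, 1754 carry more than 1, and 12083 have no listed gene. For 769 genes with more than 1 probe set, the one with the highest mean was kept, without a filter on dim genes, which left 18417 genes. The model, fitted in R 4.3.3 by lmFit and eBayes of limma 3.58.1, had a mean for each of 4 groups and used all 8 arrays, with 4 residual degrees of freedom. P-values were adjusted by Benjamini-Hochberg over all genes within each comparison. The fit was tested on simulated data, with added shifts larger than any difference reported here for a member. That test cannot show how often smaller shifts would be found. Precision is limited by the number of arrays.

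Members and lists were chosen with earlier results of these data known. Genes named are, per cluster, the 4 highest, the lowest and the smallest p in each comparison, the 3 nearest either side of the limit, pseudogenes, C-type members, PCDHA11 and PCDHB18P, and up to 3 per list by p besides CTCF, SMCHD1, ADAM10 and WASF1. Genes with calls after leaving out an array, PCDHB7, the neighbours of PCDHB18P and genes whose vehicle arrays stand apart were added after their values were seen. Promoters come from RefSeq (GRCh38.p14). Alternatives were other normalizations, probe set rules, filters, a replicate block and leaving out arrays.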

Additional observations from a re-analysis of the deposited data

Results flagged for a closer look

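The values of PCDHB18P had opposite signs with and without the other compound. The RU-486 difference was 0.13 ± 0.09 without and -0.54 ± 0.09 with progesterone, and the progesterone difference was 0.51 ± 0.09 without and -0.15 ± 0.09 with RU-486. None of the 4 passed limma's adjusted p, and the smaller of each pair, 0.13 and -0.15, had unadjusted limma p of 0.184 and 0.123, so neither of these signs was established. The interaction, -0.66 ± 0.12, is the same number for both, and its limma adjusted p of 0.828 did not pass. An RU-486 effect whose arrays all moved in opposite directions with and without progesterone was seen in 1 of 31 members and 5.25% of all genes, and the same for progesterone in 1 of 31 members and 8.25% of all genes.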

How the results depend on the processing

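Under quantile normalization, the mean of a gene's probe sets, array weights, an eBayes trend, all probe sets, only genes above the limit, and without both progesterone arrays, the count of members called stayed 0 in the comparisons run. The array weights were 0.343 for progesterone and 1.19 to 1.67 for the other groups. With the 99th percentile of the olfactory receptor genes as the limit 13 members lay above it, against 21. At the 90th percentile, 5.86, PCDHB15 (6.21), PCDHB12 (6.09), PCDHB13 (6.05) and PCDHB5 (6.01) lay above it besides those 21. With the replicate number as a block 0 members were called; the within-pair differences of the groups correlated at 0.197 to 0.511, but no label says that a number marks a shared batch, and there are only 2 numbers.

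Leaving out 1 array gave 0 to 4 members called for progesterone against vehicle, 0 to 2 for the combination against progesterone, 0 to 1 for RU-486 on average, and 0 in each of the remaining comparisons of the design; the cause was not tested. The alpha median then ran from 0.185 to 0.41 for progesterone, from 0.005 to 0.245 for RU-486 and from 0.157 to 0.356 for the combination against vehicle, and the beta median from -0.109 to 0.162 for progesterone and from -0.165 to -0.02 for the average RU-486 effect. PCDHGB4 changed sign: its range was -0.092 to 0.293 for progesterone, -0.322 to 0.063 for RU-486, -0.363 to 0.022 for the combination and -0.259 to 0.126 for the 3 treatments against vehicle, -0.151 to 0.069 for the combination against RU-486, -0.334 to 0.051 for the interaction and -0.067 to 0.126 for the average progesterone effect. PCDHB18P ran from -0.064 to 0.016 for the combination against vehicle. With 2 arrays a group and 4 residual degrees of freedom, no count here shows that a gene did not respond.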
